A study of Trametes gibbosa with 15 samples.

Results

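Gene expression of Trametes (Lenzites) gibbosa, a white-rot fungus, was compared between mycelium of strain CB-1 that had spent 11 days with poplar chips and mycelium harvested without wood. The comparison was chosen by its labels alone and holds 6 of the 15 libraries of the study, 3 at day 11 and 3 controls. Every culture was grown still for 10 days in a liquid medium low in nitrogen and supplied with glucose. The day 11 cultures were then given 2 g of chips of a poplar hybrid (Populus simonii × P. nigra; the series' design text speaks of sawdust) and kept for 11 more days, while the controls were harvested at the time of wood addition. Each group came from 15 bottles used as 3 biological replicates. No older culture without wood was analysed here, so wood and culture age cannot be told apart in any value below. The other 9 libraries, 3 each from days 3, 5 and 7 with wood, entered only as described.

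White-rot fungi break down lignin as well as cellulose and hemicellulose. They do so with secreted enzymes, among them peroxidases, laccases and enzymes that supply hydrogen peroxide, and with glycoside hydrolases that cut the polysaccharides. In related white-rot species, nitrogen limitation and the carbon source are known to influence these enzymes. The files used here do not pair gene identifiers with names or products. No enzyme family could therefore be followed, the fungal label could not be checked against marker genes, and the changes are described by size, level and course over time, with at most 2 identifiers in each direction in a comparison.

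The day 11 libraries held 40193836 to 43749078 estimated counts and the controls 32472274 to 35046269. Rank correlations of log levels were 0.966 to 0.971 among the day 11 libraries, 0.965 to 0.967 among the controls, and 0.928 to 0.940 between the groups. The counts within each group differed by far more than sampling noise (ratio of chi-square to degrees of freedom 167 to 173 at day 11 and 108 to 177 in the control), so that no pair looked like 1 library deposited 2 times. Codes in the sample descriptions, whose meaning is not stated there, divide all libraries into 2 series. The day 11 libraries are all in the second series and the controls all in the first, whereas days 3, 5 and 7 have replicate 1 in the first series and their other 2 libraries in the second. The shift between series was estimated within those 3 days and taken out of the change at day 11.

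Of 11386 genes tested, 514 rose and 699 fell at day 11 relative to the control. These 1213 genes are 10.7% of those tested, with 4.51% higher and 6.14% lower. Such genes, said to be called below, had a change of 2-fold or more and an adjusted p under 0.05 in edgeR's quasi-likelihood test, with library series as a term and Benjamini-Hochberg adjustment over all genes tested. The median log2 fold change was 1.44 in the higher genes, -1.61 in the lower genes and 0.03 over all genes tested. Changes of 2 to 4-fold made up 403 of the higher and 460 of the lower genes, changes of 4 to 8-fold 60 and 149, changes of 8 to 16-fold 21 and 50, and changes of 16-fold and over 30 and 40. Sizes are as fitted, and for genes at or near 0 counts in a group they are no bound on the change. In bulk mycelium, fewer cells carrying a transcript and less transcript per cell cannot be told apart.

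The split into higher and lower genes depended on the scaling. The scaling factors (TMM, which centre the middle of all genes) averaged 1.09 at day 11 and 0.795 in the control. With library totals in their place, 1863 genes were higher and 360 lower, and the median of all genes moved up to 0.52 on the log2 scale. The share of higher genes among those called was 42.4% with TMM and 83.8% with library totals. Of the genes called with TMM, all 514 higher genes were also called higher with library totals, and 353 of the 699 lower genes were also called lower. No gene was called in opposite directions by these 2 scalings. Higher and lower are meant on the TMM scale below unless another scaling is named.

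**Figure D1:**
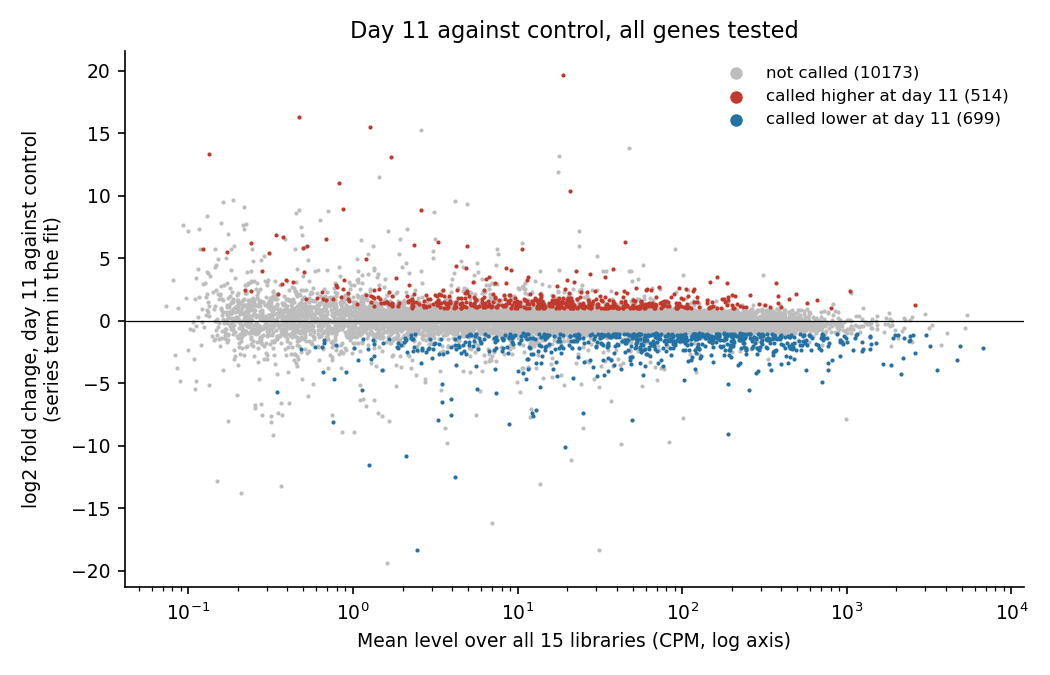
Log2 fold change of day 11 against control for the 11386 genes tested (vertical axis) against the mean level over all 15 libraries in CPM (counts scaled to a common library total with TMM factors, log axis), with genes called higher in red, genes called lower in blue and the rest in grey. Among the genes of highest level the called genes lie mostly below 0, with 31 lower and 2 higher at 1000 CPM and over.

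On the TMM scale, lower genes outnumbered higher ones at high levels and the reverse held at low levels. Of 95 genes with a mean of 1000 CPM or more over all libraries, 31 were called lower and 2 higher. This is 34.7%, against the 10.7% called among all genes. Of 2459 genes at 100 to 1000 CPM, 283 were lower and 55 higher. Of 4943 genes at 10 to 100 CPM, 259 were lower and 255 higher. At 1 to 10 CPM the order was turned, with 115 lower and 167 higher of 2653 genes, and under 1 CPM 11 were lower and 35 higher of 1236. The median log2 fold change declined over the 5 classes, in the order of increasing level, at 0.25, 0.16, 0.06, -0.19 and -0.59. With library totals as scaling the same medians were 0.74, 0.66, 0.56, 0.30 and -0.09. Relative to the median of all genes the top class lay at -0.61 with TMM and -0.62 with library totals. The sign of the median thus depended on the scaling in the class at 100 to 1000 CPM, and the order of the classes was the same under both. With library totals the counts turned in that class, to 136 lower and 268 higher, and were 132 lower and 940 higher at 10 to 100 CPM. At 1000 CPM and over they stayed mostly lower, with 19 lower and 5 higher. Levels in CPM are not corrected for gene length, and the classes describe how many fragments were counted. These counts describe the classes and no test between classes was run.

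The genes with the most transcript per length in the control were almost all lower at day 11. Ranked by mean FPKM (fragments per kilobase of transcript, scaled to library size), the control's 10 highest genes lay between 2628 and 5453 FPKM in the control and between 93.9 and 2876 FPKM at day 11. The 3 day 11 libraries were below the 3 controls in all 10, and the ratio of the group means, day 11 over control, was 0.0347 to 0.588. Of these 10, 8 passed the edgeR test with the series term, all as lower, and 7 of the 8 were also called lower with library totals. The 2 that did not pass had log2 fold changes of -1.37 (adjusted p = 0.068) and -1.93 (adjusted p = 0.064) in the same edgeR test. The deepest fall in this list was that of the ninth gene, which averaged 93.9 ± 23.8 FPKM at day 11 and 2705 ± 414 FPKM in the control (SD, n = 3 each; log2 fold change -4.21, edgeR adjusted p = 0.00038). Among all 11386 genes tested, 2507 lay lower at day 11 without overlap in CPM, and 6.14% were called lower. A list picked for high control values leans towards lower values elsewhere, so its direction is a description only.

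Fewer called genes were in the list drawn from the day 11 libraries. Their 10 highest genes lay between 1896 and 2876 FPKM at day 11 and between 755 and 4894 FPKM in the control. Of these, 3 were called, all as lower, beside 10.7% called and 6.14% called lower among all genes tested. The other 7 did not pass the test with a 2-fold change. With library totals 1 of the 3 was still called lower, and 1 of the other 2 had FPKM that overlapped between the groups. The ratio of the mean FPKM, day 11 over control, was 0.437 to 2.81. FPKM follow library totals, which puts their ratios above those of the TMM scale. They also keep the shift between series, which is taken out of the edgeR fold changes. For the gene with the ratio of 2.81, the edgeR log2 fold change was 0.25 and the shift 0.69. The lists of 10 shared 3 genes between day 11 and control, where single libraries shared 6 to 8 within day 11 and 9 to 10 within the control. For lists of 100 the numbers were 57 shared between the groups, 80 to 86 within day 11 and 87 to 89 within the control.

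Counts were spread over more genes at day 11. The 10 most counted genes of each library held 3.76%, 3.81% and 3.91% of all counts at day 11, against 7.64%, 7.61% and 8.02% in the control. The groups did not overlap, and the means were 3.83% ± 0.0733 at day 11 and 7.76% ± 0.233 in the control (SD, n = 3 each). The 100 most counted genes held 16.2%, 18.1% and 17.3% at day 11 and 26.9%, 26.2% and 26.5% in the control. Both differences gave a two-sided exact permutation p of 0.10, the smallest that 3 against 3 libraries allow. The wood libraries of days 3, 5 and 7 had a top 10 share of 3.55% to 4.69% in the first series and 4.14% to 5.47% in the second, all below the controls of the first series.

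**Figure D2:**
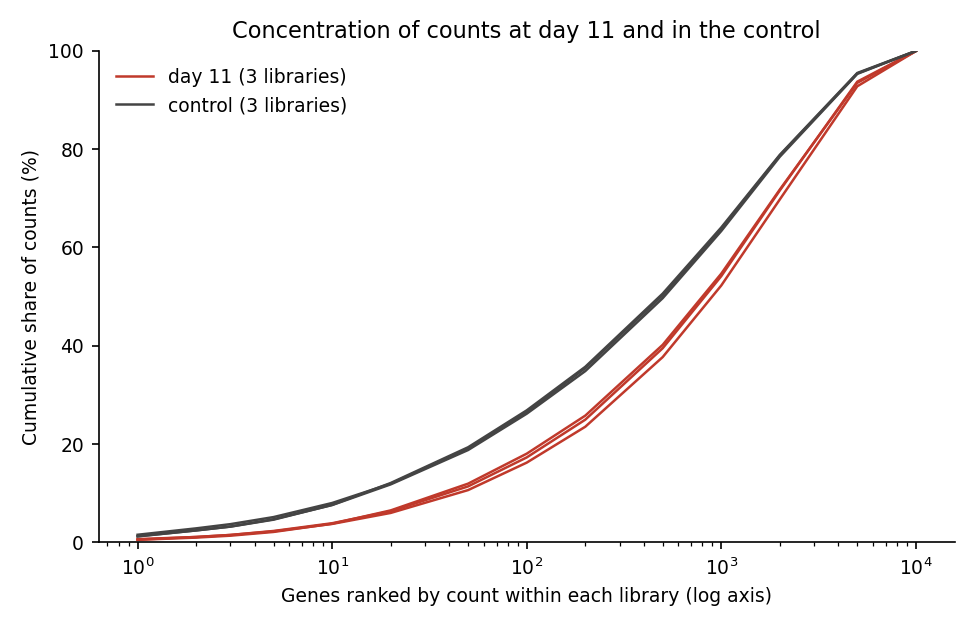
Cumulative share of counts (percent, vertical axis) against the rank of genes by count within each library (log axis), with 1 line for each of the 3 day 11 libraries in red and the 3 controls in grey. The day 11 lines run below the control lines, with 52.3% to 54.7% against 63.3% to 64.1% of counts in the first 1000 genes.

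The genes called lower took a large part of the control's counts. The 699 lower genes held 10.9% to 12.4% of counts at day 11 and 28.8% to 30.3% in the control. The 514 higher genes held 3.17% to 3.57% at day 11 and 0.954% to 1.18% in the control. Both lists were chosen on these same libraries. The wood libraries of days 3, 5 and 7 entered the same fit and gave the shift, so they are no separate check on the lists. In them the lower genes held 10.7% to 14.6% and the higher genes 2.51% to 3.69%.

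The shift between library series was set beside each change. Within days 3, 5 and 7, the shift passed the edgeR test with 2-fold or more in 306 genes (2.69% of those tested), 119 higher and 187 lower in the second series. Its median size was 0.31 on the log2 scale over all genes, and 0.36 in the genes called at day 11, whose unadjusted difference between day 11 and control had a median size of 1.30. The shift was larger than the unadjusted difference in 201 of the 1213 called genes. In 371 of them, 189 higher and 182 lower, that difference was under 2-fold on log2 levels. Calls made only with the series term are counted in the next paragraph. The median shift was -0.32 in the higher and 0.17 in the lower genes, opposite to the change in each, which the choice of genes after removing the shift favours by itself.

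Leaving the series term out changed which genes were called more than how many. Without it, 568 genes were higher and 798 lower (12% of those tested). Of these, 301 higher and 493 lower were called in the same direction with the term, and no gene was called in opposite directions. The term thus added 213 higher and 206 lower genes, and 267 higher and 305 lower genes were called only without it.

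A shift common to the 3 days is an assumption of the fit. The shifts of days 3, 5 and 7 differed from each other in 13 genes (0.114% of those tested, edgeR, each with 2-fold or more between 2 days), beside 707 genes at an unadjusted p under 0.05. With DESeq2 they differed in 128 genes. Each of the 3 days has only 1 first-series library, so few calls do not show that the shifts were alike. Single days gave wider values. The shift was 2-fold or more in 1540 genes at day 3, 1636 at day 5 and 1634 at day 7, and it was so in the same direction at all 3 days in 196 genes. Each of those values sets 1 library against the mean of 2. When the shift of day 3, day 5 and day 7 was subtracted in turn from the unadjusted difference, 338 of the 514 higher and 513 of the 699 lower genes kept 2-fold or more each time, as did 1307 of all genes tested. Fewer passed the test when each day alone gave the shift, with 72 higher and 202 lower genes called with every one of the 3.

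**Figure D3:**
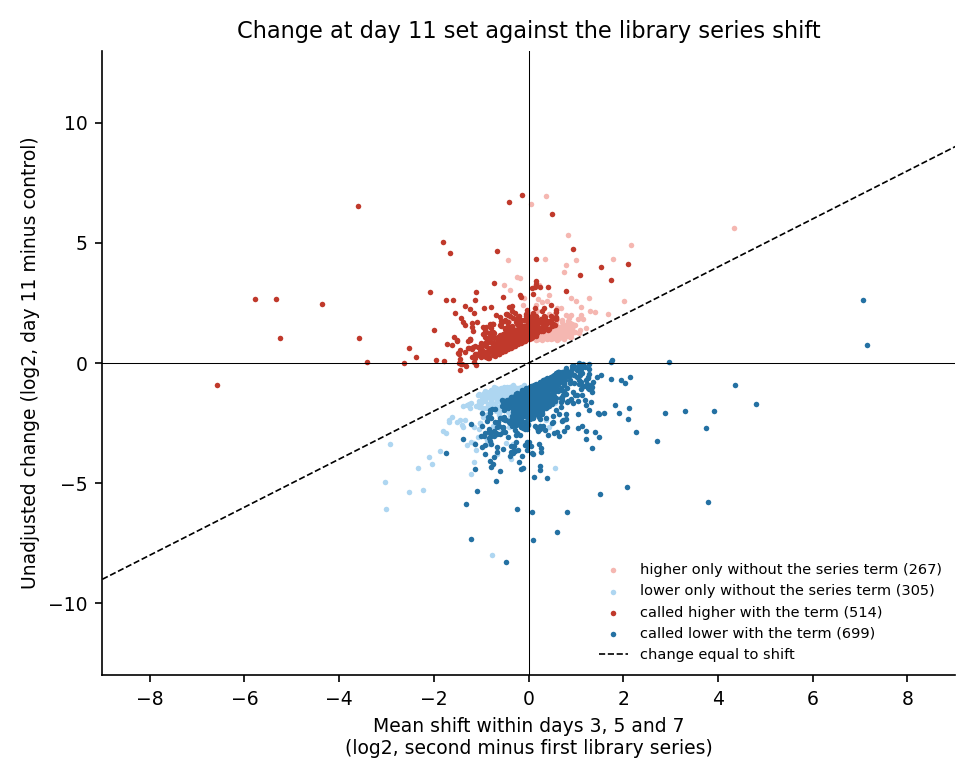
Unadjusted difference between day 11 and control (log2, vertical axis) against the mean shift from the first to the second library series within days 3, 5 and 7 (log2, horizontal axis), for genes called with the series term (dark red higher, dark blue lower) and genes called only without it (pale). Pale points lie towards the dashed line on which change and shift are equal, and 201 of the 1213 dark points have a shift larger than the change.

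The strictest set of changes was built from genes called however the shift was taken and with either scaling. Chosen after seeing the data, it holds those called in the same direction with the shift of all 3 days, with the shift of day 3, of day 5 and of day 7 alone, without the series term, and with library totals. There were 56 higher and 146 lower such genes, 10.9% and 20.9% of the higher and lower genes called. In all 202 the 3 day 11 libraries did not overlap the 3 controls, which was also the case in 46.4% of all genes tested. The higher genes averaged 6.53 to 584 CPM at day 11 (median 41.5) and 0.226 to 209 CPM in the control (median 15.0). The lower genes averaged 0.0888 to 3687 CPM at day 11 (median 90.4) and 5.01 to 16960 CPM in the control (median 371). Their median log2 fold changes were 1.59 and -2.20, and 17 higher and 91 lower genes changed 4-fold or more. The 146 lower genes held 2.91% to 3.24% of counts at day 11 and 11.3% to 11.7% in the control. The wood libraries of days 3, 5 and 7 also served to choose this set, and in them these lower genes held 2.80% to 4.15%.

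On log2 levels, the difference between day 11 and control less the mean shift of days 3, 5 and 7 is the sum of 2 steps that each stay within a library series and share no library. The fitted change is not exactly that sum, and for gene_11128, described below, it differs from it in sign. The first step sets replicate 1 of days 3, 5 and 7 against the 3 controls, and the second sets the day 11 libraries against the second-series libraries of days 3, 5 and 7. On log2 levels, the 514 higher genes had a median first step of 1.15 and a median second step of 0.30. The 699 lower genes had a median first step of -1.45 and a median second step of -0.15. Over all genes tested both medians were near 0, at 0.02 and 0.01. In the direction of the call, the first step was 2-fold or more in 342 of the higher and 560 of the lower genes. The second step was so in 50 and 40, and both steps in 26 and 31. Among all 11386 genes tested, the first step was 2-fold or more up in 949 and down in 1174. The second step was so in 415 and 303. Called genes were picked on a change close to the sum of the 2 steps, which favours large steps by itself. In 63 higher and 34 lower genes the second step was the larger. For 419 higher and 494 lower genes both steps went the same way, while in 90 higher and 205 lower genes the second step went back towards the control.

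**Figure D4:**
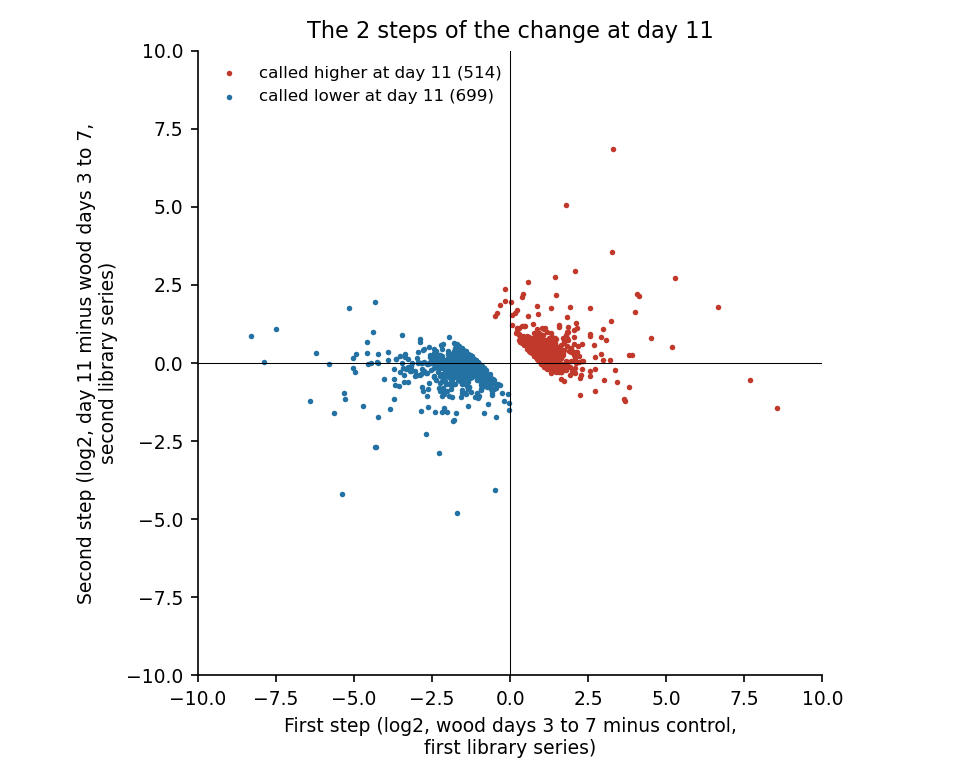
First step (log2, wood days 3 to 7 minus control, first library series, horizontal axis) and second step (log2, day 11 minus wood days 3 to 7, second library series, vertical axis) of the 1213 genes called at day 11, higher in red and lower in blue. The points spread along the horizontal axis, with medians of 1.15 and -1.45, and stay near 0 on the vertical axis, with medians of 0.30 and -0.15.

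Tested on their own libraries, the 2 steps gave very different numbers of genes. The first step gave 396 genes above and 696 below the control, 10.1% of the 10844 tested (edgeR, same thresholds). With library totals, tried after seeing the data, it gave 1382 higher and 400 lower. In the second step 31 genes were higher and 10 lower at day 11, 0.36% of 11402 tested. The reference was the mean of days 3, 5 and 7 on the log scale. At an unadjusted p under 0.05 there were 3985 and 2135 genes. The steps have 6 and 9 libraries, and they compare different groups, so the numbers are given side by side without a test between them. The count of the second step was 214 with DESeq2 (146 higher and 68 lower), and it lay between 15 and 34 when single libraries were left out. It was 15 without replicate 2 of day 11 and 17 without replicate 3. It was 19 without replicate 3 of day 7, 20 without replicate 2 of day 5, 25 without replicate 3 of day 3, and 26 without the unnumbered library of day 5.

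Of the 10813 genes tested in both steps, 8 were called in both. Of these 8, 2 were higher in both and 1 lower in both, 3 were lower in the first step and higher in the second, and 2 the reverse. Of the genes tested in both and called in the second step, 25 higher and 7 lower genes were not called in the first.

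Steady changes are those of genes with 10 CPM or more in the higher group and a range under 3-fold on CPM + 0.5 within each group. The added 0.5 lets groups near 0 CPM pass even where their libraries differ more than 3-fold. The strongest steady rise among reference genes was that of gene_1478. It stood at 21.1, 15.1 and 17.8 CPM in the day 11 libraries and at 0.108, 0.419 and 0.149 CPM in the controls. The day 11 libraries held 976, 702 and 756 counts where the controls held 3, 11 and 4. The groups were far apart, and the log2 fold change was 5.78 with an SE of 0.50 (edgeR adjusted p = 3.8e-05). The ratio of summed counts, day 11 over control and scaled by library, was 80.7 with an exact binomial 95% interval for counting error of 50.9 to 136. The first step was 5.18 on log2 levels and the second 0.51, and the gene rose at days 3, 5 and 7 too (log2 fold changes of 4.83, 5.46 and 5.56 against the same controls). Its shift between series was 0.52 (edgeR adjusted p = 0.25).

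The strongest steady fall was that of gene_2985. It had 0.0865, 0.0860 and 0.0939 CPM at day 11, against 44.1, 51.9 and 35.6 CPM in the control. Each of the 3 day 11 libraries held 4 counts, and the controls held 1221, 1361 and 955. Its log2 fold change of -8.23 had an edgeR adjusted p of 1.5e-08 (SE 0.26). The ratio of summed counts, control over day 11, was 494 with a 95% counting interval of 282.5 to 957. All 6 second-series libraries of days 3, 5 and 7 also held 4 counts and all 3 of the first series 5, whatever their depth. Such steady low counts are estimates of uncertain precision, so the size of this fall is uncertain and its direction is not. The first step was -7.87 and the second 0.04, so the difference from the control was already present by days 3 to 7.

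The newly assembled locus with the strongest steady fall, Trametes_gibbosa_newGene_291, shows how far a call can rest on the shift. It lies on scaffold 12 from 137921 to 138728 on the plus strand, with 2 transcripts of up to 3 exons, and no other new locus overlaps it. No source used here gives the genome build. It stood at 125, 170 and 181 CPM at day 11 and at 266, 243 and 196 CPM in the control. In deposited FPKM the groups overlapped, with 220 to 281 at day 11 and 240 to 328 in the control. Fitted with the shift, its log2 fold change was -1.84 (SE 0.25, edgeR adjusted p = 0.00047), but it was -0.57 without the series term (edgeR adjusted p = 0.37). The shift was 1.27 (edgeR adjusted p = 0.00085). Replicate 1 of days 3, 5 and 7 lay at 126, 87.1 and 70.6 CPM, and the second-series libraries of those days at 173 to 304 CPM. No newly assembled locus met the same conditions among the higher genes.

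**Figure D5:**
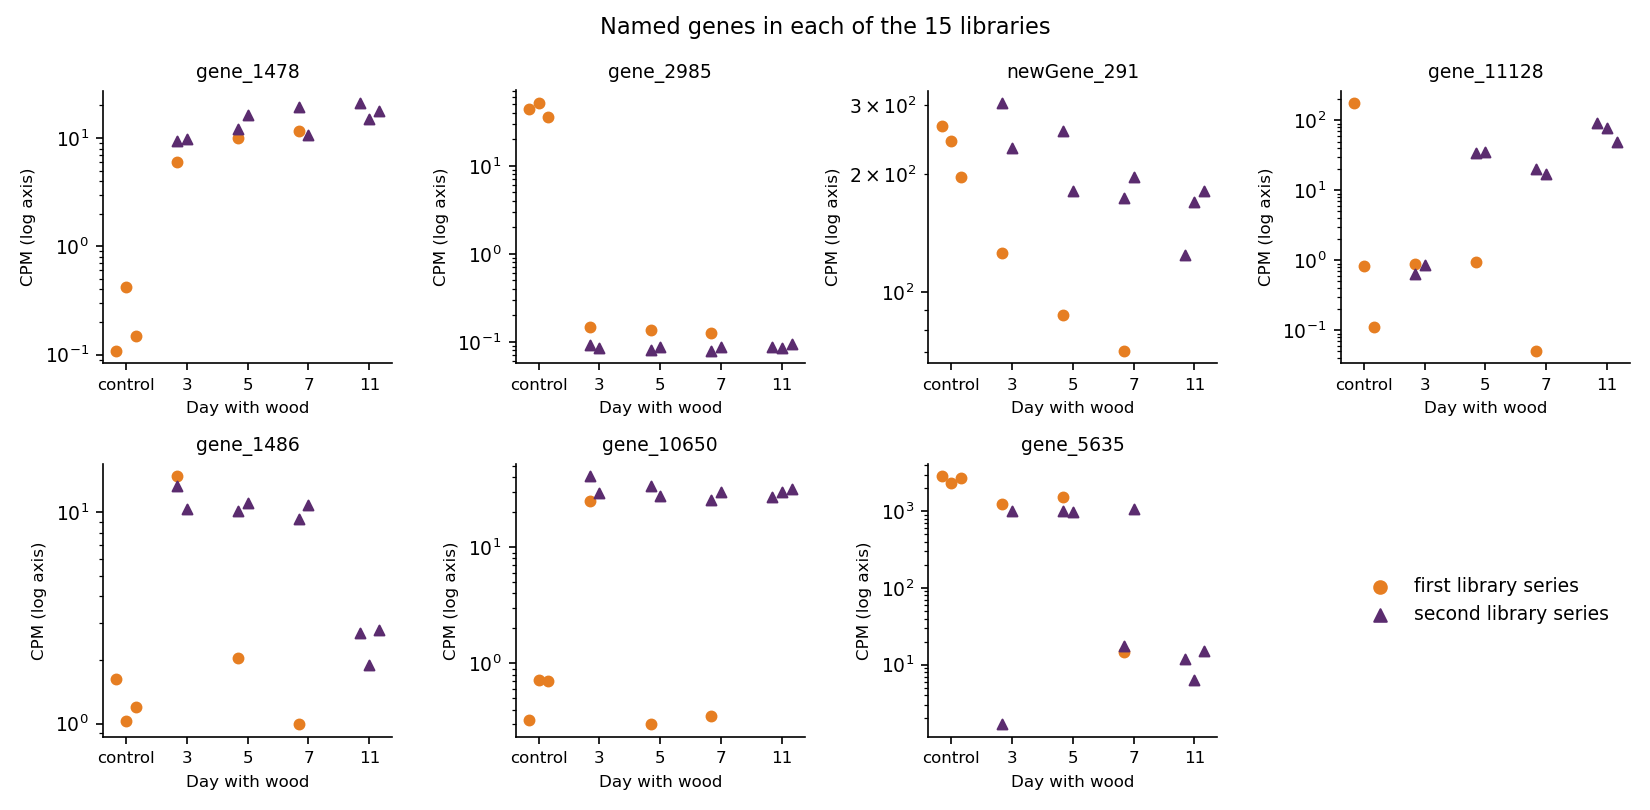
Level of each named gene in CPM (vertical axes, log scale) in the 15 libraries by group (horizontal axes), with circles for the first and triangles for the second library series. The genes gene_1478 and gene_2985 stand apart from the control in all wood libraries, while gene_10650, gene_1486, gene_11128 and Trametes_gibbosa_newGene_291 differ between circles and triangles at days 5 and 7.

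In the second step the strongest steady riser was gene_11128. It had 91.8, 79.3 and 49.0 CPM at day 11, against 0.639 to 35.4 CPM in the 6 second-series libraries of days 3, 5 and 7. These 6 fell apart by day, with 0.639 and 0.872 CPM at day 3, 34.8 and 35.4 at day 5, and 20.5 and 17.4 at day 7. The log2 fold change against the mean of the 3 days, taken on the log scale, was 3.22 (SE 0.21, edgeR adjusted p = 0.0093). Each day weighs equally in that mean, so the low values of day 3 pull it down. Against the control the gene gave no call (log2 fold change -3.23, SE 3.00, edgeR adjusted p = 0.49). Of the controls, 1 held 178 CPM and the others 0.838 and 0.112. Replicate 1 of days 3, 5 and 7, in the first series, held 0.891, 0.950 and 0.0508 CPM, and the shift between series was -0.24, 5.14 and 7.57 on the log2 scale at those days. The part of these values in the missing call was not tested.

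The strongest steady faller of the second step was gene_1486. Its levels were 2.68, 1.89 and 2.77 CPM at day 11 and 9.28 to 13.3 CPM in the second-series libraries of days 3, 5 and 7 (log2 fold change -2.13, SE 0.19, edgeR adjusted p = 0.019). The controls stood at 1.63, 1.03 and 1.19 CPM, below all 3 day 11 libraries. Day 11 against control was not called for this gene (log2 fold change -0.62, edgeR adjusted p = 0.64). In the first series it had 14.8 CPM at day 3, 2.04 at day 5 and 0.991 at day 7.

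Genes called only without the series term are shown by the strongest steady one in each direction. The higher one was gene_10650, with 27.1, 30.1 and 31.5 CPM at day 11 and 0.325, 0.724 and 0.708 CPM in the control. Its log2 fold change was 5.65 without the series term (edgeR adjusted p = 0.018) and 1.99 with it (SE 1.61, edgeR adjusted p = 0.42). All 6 second-series libraries of days 3, 5 and 7 held 25.7 to 40.7 CPM. Of the first-series libraries, replicate 1 of day 3 held 25.1 CPM, while those of days 5 and 7 held 0.299 and 0.356, close to the controls. The value depended on which day gave the shift. It was 5.17 with that of day 3 alone, a call (edgeR adjusted p = 0.0047), and turned to -1.01 and -0.62 with that of day 5 or day 7 alone, neither of them a call.

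The lower one was gene_5635, with 11.9, 6.24 and 15.1 CPM at day 11 and 2845, 2316 and 2731 CPM in the control. This is the wider gap of the pair, and yet the log2 fold change of -7.88 just missed the threshold with the series term (SE 2.65, edgeR adjusted p = 0.055), against an edgeR adjusted p of 0.017 without it. The missed call depended on the tool and settings. With the series term kept, the gene passed with DESeq2 (adjusted p = 0.00083), with library totals (edgeR adjusted p = 0.043) and with a filter at 10 CPM (edgeR adjusted p = 0.044). It also passed with the shift of day 5 alone (edgeR adjusted p = 0.0049). The same was so on leaving out replicate 2 of day 3 (0.016), replicate 2 of day 7 (0.04997) or replicate 3 of day 7 (0.025), with the edgeR adjusted p in brackets. Over all 31 alternatives the adjusted p ran from 0.00057 to 0.286. The libraries of days 3 and 7 were divided. Replicate 1 of day 3 held 1256 CPM and replicate 1 of day 7 held 14.7. In the second series, day 3 had 1.67 and 998 CPM and day 7 had 17.5 and 1058. All 3 libraries of day 5 were high, at 969 to 1523 CPM. The 3 day 11 libraries were thus low like some single cultures of days 3 and 7.

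Newly assembled loci, which the authors added from their own reads, made up few of the called genes. Of 616 tested, 17 were higher and 13 lower at day 11, 4.87% against the 10.7% called among all genes. Among the 10770 reference genes tested, 497 were higher and 686 lower (11.0%). The loci had a median log2 fold change of 0.20, and the reference genes one of 0.02. The loci held only 0.508% to 0.619% of counts at day 11 and 0.538% to 0.697% in the control, and their level was not matched to that of reference genes. Of 291 loci with a single transcript, 11 were higher and 2 lower, and of 325 with several transcripts, 6 were higher and 11 lower. Of the 149 loci that overlap another new locus, 5 were higher and 4 lower, and of the other 467, 12 and 9. All tested loci had several exons in at least 1 transcript. None of the 202 genes of the strictest set was a new locus. The count of called loci was 50 with DESeq2, 84 with library totals and 5 with a replicate block beside the series term.

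No gene held 100 counts or more in every day 11 library and 10 or fewer in every control, out of 416 tested genes with such low control counts. The limit of 10 counts left out gene_1478, which held 11 counts in 1 control. In the other direction 2 genes held 10 counts or fewer in each day 11 library and 100 or more in each control. Both were called lower, with 5.01 and 43.9 CPM in the control, and both had a first step of 2-fold or more. The one at 43.9 CPM is gene_2985.

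Replicate spread was of similar size in day 11 and control libraries. The ratio of the highest to the lowest library, on CPM + 0.5, had a median of 1.30 within day 11 and 1.32 within the control. It reached 3-fold or more in 702 genes within day 11 and 811 within the control, and 10-fold or more in 184 and 220. Among the 1213 called genes, 37 ranged 3-fold or more within day 11 and 45 within the control, 75 in either. For these the mean of a group covers libraries that lie far apart.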

How the data were processed

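Poly-A RNA of 15 mycelium libraries was sequenced in pairs of reads, per the labels' protocols. Tools named in the submitters' processing notes are HISAT2, StringTie, DESeq 1.10.1 and DESeq2 without their roles, and no source used here gives the build. The authors deposited estimated counts per gene as whole numbers and FPKM values, per the file headers, with positions of loci newly assembled by StringTie. One day 5 count column carries no replicate number. It entered as a day 5 library with no number and was assigned to the second series, to which the day 5 sample without a column belongs.

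The count model was edgeR 4.0.16 in R 4.3.3 (filterByExpr, 11386 of 12885 genes, TMM, robust quasi-likelihood over all genes, group and library series as terms, 15 libraries, 9 residual degrees of freedom, biological coefficient of variation 38.8%). A call meant 2-fold or more with a Benjamini-Hochberg adjusted p below 0.05. The printed SE is the log2 fold change divided by the square root of F. Log2 levels used a prior count of 2. The first step was fitted on 6 and the second on 9 libraries. The procedure was also run on simulated counts, with a shift common to all days and changes only at day 11. That run could not probe shifts that differ between days. Shares were compared by exact permutation. Counting intervals cover counting error only.

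Named genes were called, had 10 CPM or more in the higher group, no overlap and under 3-fold range on CPM + 0.5 within groups, and for day 11 against control were also called with the shift of each day alone. The largest change was named, by direction and by reference gene or new locus. Members, lists and tests were chosen with earlier results of these data known. Alternatives were DESeq2 1.42.0, limma 3.58.1 on log2(FPKM + 1) and log2(FPKM + 0.1), other scalings, filters and series terms, a replicate block and leaving out libraries.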

Additional observations from a re-analysis of the deposited data

Results flagged for a closer look

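Effects that differed between time points drew attention in 2 counts. Within the second library series, day 11 differed from the log-scale mean of days 3, 5 and 7 in 41 genes. Of these, 31 were higher and 10 lower at day 11 (edgeR, adjusted p under 0.05 and 2-fold). By the same test, 13 genes had a shift between the library series that was not alike at days 3, 5 and 7, and DESeq2 gave 128. With 3 libraries a group, single libraries far from the others were not tested for.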

How the results depend on the processing

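Over 31 alternatives, no gene called higher or lower at day 11 was called in the opposite direction. Library totals gave 2223 genes called (1863 higher, 360 lower, 84 new loci). limma gave 1394 higher and 337 lower on log2(FPKM + 1), and 2269 called (1913 higher, 356 lower, 95 new loci) on log2(FPKM + 0.1). Upper-quartile factors gave 633 higher and 599 lower. The shift of day 3 alone gave 695 (260 higher, 435 lower, 11 new loci), of day 5 alone 529 (176, 353 and 6), and of day 7 alone 554 (175, 379 and 9). These fits have 9 libraries each. A test against a fold of 1.5 gave 765 (272 higher, 11 new loci). New loci called were 50 with DESeq2, 48 without the series term and 6 with a filter at 10 CPM. Leaving out single libraries gave 1040 to 1310 genes called. A replicate block beside the series term, without the unnumbered library, gave 704 genes (234 higher, 470 lower, 5 new loci), and on day 11 and control alone 1068 (13 new loci). Same-numbered libraries of day 11 and control deviated together with correlations of only 0.023, 0.013 and 0.015. Replicates 2 and 3 of day 11 correlated best with another number. Over all pairs the correlations lay between -0.036 and 0.023, and whether equal numbers stand for a shared origin was not tested.

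The series shift was called in 152 to 388 genes without single libraries (59 to 143 higher, 93 to 245 lower), with 152 without replicate 1 of day 5, and was higher in 185 with DESeq2. It differed between days in 128 genes with DESeq2. With library totals, an alternative chosen after seeing the data, the first step gave 1782 genes (1382 higher, 400 lower). The second step gave 214 with DESeq2 (146 higher, 68 lower) and 15 to 34 without single libraries (10 to 26 higher, 5 to 13 lower). The difference in the share of the 100 most abundant genes, day 11 minus control, was -9.31 percentage points, and -8.26 by FPKM. The fold change of gene_10650 was 5.17 with the shift of day 3 alone, turned to -1.01 and -0.62 with that of day 5 and day 7 alone, and ranged from -0.81 to 3.42 without single libraries, the lowest without replicate 1 of day 3. The calls of gene_1478 and gene_2985 held in all 31 alternatives (log2 fold change 2.70 to 6.57 and -8.92 to -4.79). That of Trametes_gibbosa_newGene_291 was lost in the 3 fits without a series term (-0.57, -0.59 and -0.60). The causes of these differences were not tested.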
